A study of Mus musculus with 6 samples.

Results

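The Hedgehog pathway genes described here are Shh, Scube2, Ptch1, Hhip, Boc, Smo, Gli1, Gli2 and Gli3, 9 of the 24062 gene symbols in the deposited table. They were chosen by name for their roles in the pathway, with earlier results of these data known. PolyA-selected RNA came from mouse embryo heads dissected at embryonic day 8.5, on a C57BL/6 background. The 3 groups, of 2 libraries each, carried the Prdm15 tm1a allele on neither chromosome (wild type, Prdm15 tm1a+/+), on 1 (heterozygous, Prdm15 tm1a+/-) or on both (mutant, Prdm15 tm1a-/-). The tm1a allele is a cassette inserted into a gene present in every cell, so no tissue or cell type limits where Prdm15 was altered. The protocol speaks of 2 heads per genotype, as many as there are libraries, and no label gives litters or batches, so p-values measure only the spread between these libraries. The series title names forebrain development and Otx2, and the comparisons below ask how the genes of 1 signalling pathway stood in these heads.

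Hedgehog proteins are secreted signals. Patched receptors hold the membrane protein Smoothened inactive until a ligand binds them, after which Smoothened, acting in the primary cilium, shifts the balance of the Gli transcription factors from repression to activation. In the early head Sonic hedgehog comes from the axial midline below the neural plate and later from the ventral neural tissue itself, and it is known for its part in patterning the ventral forebrain and in separating the eye fields. Gli1, Ptch1 and Hhip are genes that pathway activity is often read from, since Gli factors induce them.

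Reads assigned to genes numbered 29412227 to 40439234 per library. Of the count files, those given for replicate 2 of the wild type and replicate 1 of the mutant bore each other's titles, and counts were assigned by the title in the file name. Each of the 6 files then matched the RPKM column of its title, with 0 genes differing in zero status. The heads differed in more than neural genes. The summed level of 18 yolk sac visceral endoderm markers was 146 and 144 CPM (counts scaled to the library total) in wild-type, 3336 and 2467 in heterozygous and 5916 and 5002 in mutant libraries, with Spp2 and Alb at 0 reads in both wild-type libraries. All 17 of these markers that could be tested passed as higher in mutant than in wild-type libraries, as did 17.1% of all genes tested. For 18 heart markers the sums were 314 and 168, 2062 and 3215, and 2489 and 1425 CPM. For 20 forebrain markers they were 618 and 473, 346 and 429, and 192 and 152 CPM, and for 18 neural progenitor markers 1828 and 1802, 1471 and 1708, and 1259 and 1343 CPM. Wild-type replicate 2 and both mutant libraries had Xist above 1 CPM and the other 3 libraries had it below, so that Xist status was not balanced over the groups. Prdm15 itself, counted over the whole gene, did not pass in any comparison, its log2 fold change being -0.21 (SE 0.12, adjusted p = 0.221) in mutant against wild type; scaled to neural progenitor genes it was 0.50 (adjusted p = 0.0101).

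In wild-type heads Smo had the highest and Hhip the lowest level per gene length. Mean RPKM, the reads scaled to gene length and library size as the authors deposited it, was 81.7 for Smo, 44.04 for Ptch1, 30.1 for Gli3, 16.4 for Gli1, 15.7 for Gli2, 12.2 for Boc, 6.22 for Shh, 4.48 for Scube2 and 0.768 for Hhip. Each gene lay apart from the next in both libraries except Gli1 and Gli2, whose ranges overlapped. The order held in the heterozygous heads, where the neighbours that overlapped were Shh and Scube2. In mutant heads Gli1 had moved from the 4th to the 7th place, below Shh, Scube2 from the 8th to the 9th, below Hhip, and the ranges of Gli3 and Gli2 overlapped.

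**Figure D1:**
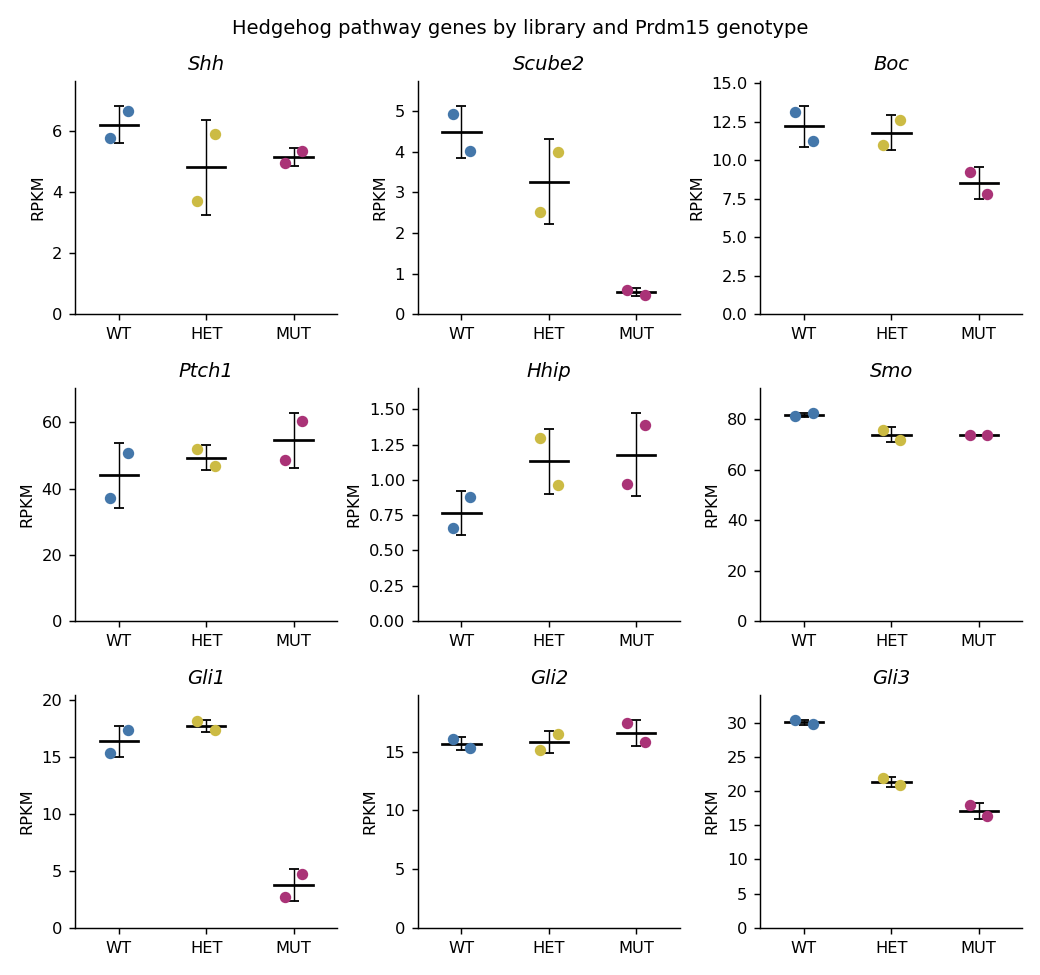
RPKM of the 9 Hedgehog pathway genes in each library (points), with the mean (line) and SD (bar) of the 2 libraries of each genotype (WT wild type, HET heterozygous, MUT mutant); every axis starts at 0. Gli1 and Scube2 were low in the mutant libraries alone, the Gli3 groups did not overlap, wild type being highest and mutant lowest, and Gli2 stayed between 15.1 and 17.4 RPKM.

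Between mutant and wild-type heads 4 of the 9 genes fell, Gli1, Scube2, Gli3 and Boc, and the other 5, among them Shh, Smo and the receptor and target gene Ptch1, did not pass the test. Scaled to neural progenitor genes, which shifts the median of all genes by 0.72, 2 of the 9 fell (Gli1 and Scube2) and 4 rose (Ptch1, Hhip, Smo and Gli2), with a median of 0.46. Under that scaling 10689 of the 15187 genes tested passed as higher and 411 as lower. All 9 genes were among the 15187 tested with edgeR's quasi-likelihood test. Without that scaling 30.6% of all genes tested passed in this comparison, 13.6% as lower. The groups did not overlap for 7 of the 9 genes, against 71.0% of all genes tested. The median log2 fold change was -0.26 over the 9 genes and -0.02 over all genes tested. In heterozygous against wild-type heads 1 of the 9 passed, Gli3, as lower, where 6.56% of all genes passed, 6.03% as higher and 0.533% as lower; 5 of the 9 did not overlap, against 56.2% of all genes. In mutant against heterozygous heads 2 passed, Gli1 and Scube2, both lower, where 0.435% of all genes passed, 0.0724% as higher and 0.362% as lower; 4 of the 9 did not overlap, against 54.0% of all genes. Neither passed there without wild-type replicate 1 or without heterozygous replicate 2, with at least 1 of them lost without each of 3 other libraries. These comparisons share libraries, so their values are not independent of each other. With each file kept under the sample it is attached to, none of the 9 genes and none of the 15187 passed in any of these comparisons; 318, 48 and 422 genes had an unadjusted p under 0.05 there, and DESeq2 was not run on that assignment. Leaving out both libraries whose files disagree with their samples, an alternative chosen after seeing the data, left 1 wild-type and 1 mutant library. There, in mutant against wild type, Gli1 was at -1.69, Scube2 at -3.36, Gli3 at -0.89 and Boc at -0.75. Ptch1 was at 0.71, Hhip at 1.08, Shh at -0.11, Smo at -0.14 and Gli2 at -0.02.

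**Figure D2:**
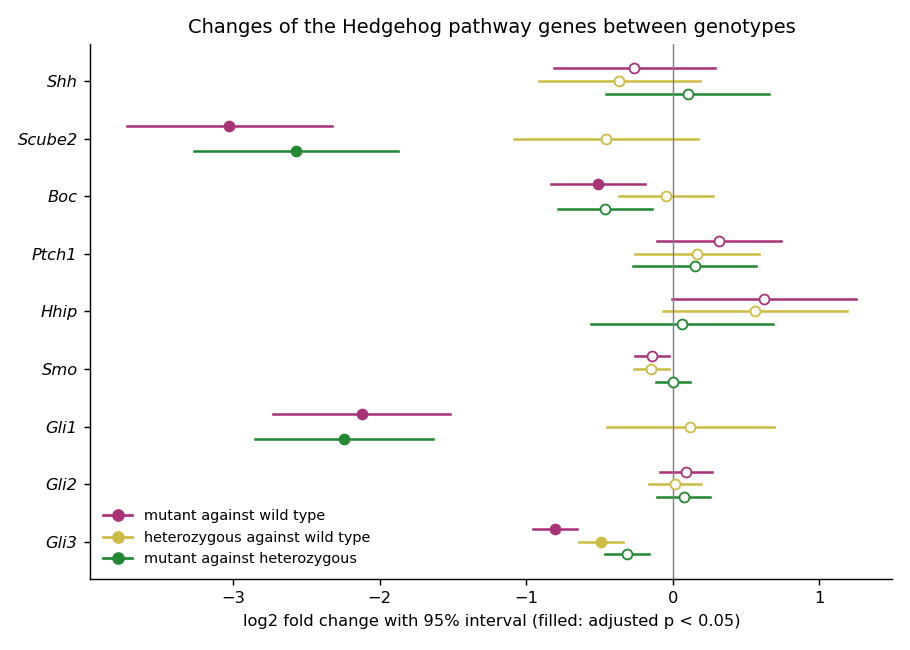
Log2 fold change of each gene (points) with its 95% interval (lines) in 3 comparisons, from the fit over all genes; filled points have an adjusted p under 0.05. The mutant intervals of Gli1 and Scube2 lie entirely below -1, while those of Shh, Ptch1, Hhip and Gli2 include 0.

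The ligand gene Shh encodes Sonic hedgehog (chromosome 5, 28456815 to 28467256, minus strand, GRCm38). It stood at 5.79 and 6.65 RPKM in wild-type, 3.73 and 5.92 in heterozygous and 4.96 and 5.36 in mutant libraries. The mutant values lay just below the wild-type ones, and the heterozygous values overlapped those of both other groups. Mutant heads had a log2 fold change of -0.26 (SE 0.22, 95% interval -0.81 to 0.29, adjusted p = 0.412), and -0.36 was found in heterozygous against wild type (SE 0.22, 95% interval -0.92 to 0.19, adjusted p = 0.377). A noncoding gene on the opposite strand that overlaps Shh held 3 to 7 reads per library against 308 to 636 for Shh.

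Scube2 encodes a secreted protein that takes up lipid-modified ligand released by Dispatched and makes it soluble (chromosome 7, 109798676 to 109865679, minus strand). Its level was 4.93 and 4.02 RPKM in wild-type, 2.52 and 4.003 in heterozygous and 0.609 and 0.478 in mutant libraries. Both mutant libraries were below every other library, on 82 and 50 reads. In mutant against wild-type heads Scube2 fell by 3.03 on the log2 scale (SE 0.28), an 8.15-fold lower level, adjusted p = 0.00179. Against heterozygous heads the mutant value was -2.57 (SE 0.28), adjusted p = 0.0385. Heterozygous against wild type gave -0.45 (SE 0.26), adjusted p = 0.338. Had both exchanged files been taken by their samples instead, Scube2 would be at -0.30 in mutant and 0.24 in heterozygous heads against wild type (adjusted p = 1 for each). In bulk heads, fewer cells that express a gene and less of its RNA per cell cannot be told apart, here and in all results below.

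The 3 Scube genes did not move together. Scube1, the family member with the highest RPKM in wild-type heads, was at 16.5 and 14.5 RPKM in wild-type, 5.08 and 10.8 in heterozygous and 4.77 and 4.66 in mutant libraries. Its log2 fold change in mutant heads was -1.71 (SE 0.33, adjusted p = 0.0149). Scube3 was at 6.13 and 5.93 RPKM in wild-type and 6.64 and 5.33 in mutant libraries, with a log2 fold change of 0.00 (SE 0.16, adjusted p = 0.999). The summed RPKM of the 3 genes was 27.6 and 24.5 in wild-type and 12.02 and 10.47 in mutant libraries. Scube2 made up 17.9% and 16.5% of that sum in wild-type and 5.06% and 4.57% in mutant libraries, while Scube3 went from 22.2% and 24.3% to 55.3% and 50.9%. Whether the changes of these genes differ from each other was not tested.

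The make-up of the summed ligand RNA differed between genotypes in its Ihh share. Ihh, Indian hedgehog, which visceral endoderm of the yolk sac is known to express, held 4 and 9 reads in wild-type, 371 and 256 in heterozygous and 881 and 594 in mutant libraries. It was higher in every heterozygous and mutant library than in any wild-type library. Against wild type the log2 fold change reached 6.96 in mutant (SE 0.38, adjusted p = 0.000493) and 5.88 in heterozygous heads (SE 0.38, adjusted p = 0.00161). Per gene length Ihh was at 0.0397 and 0.105 RPKM in wild-type libraries and 9.53 and 8.28 in mutant libraries, where it exceeded Shh 1.92 and 1.54 fold. Shh made up 99.1% and 97.4% of the summed ligand RPKM in wild-type, 43.1% and 62.2% in heterozygous and 34.1% and 39.1% in mutant libraries. The other visceral endoderm markers, 17 without Ihh, summed to 146 and 144, 3324 and 2459, and 5894 and 4982 CPM in the same order of groups, and their part in the Ihh reads was not tested. Dhh, Desert hedgehog, held 1 to 7 reads per library and was not tested.

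**Figure D3:**
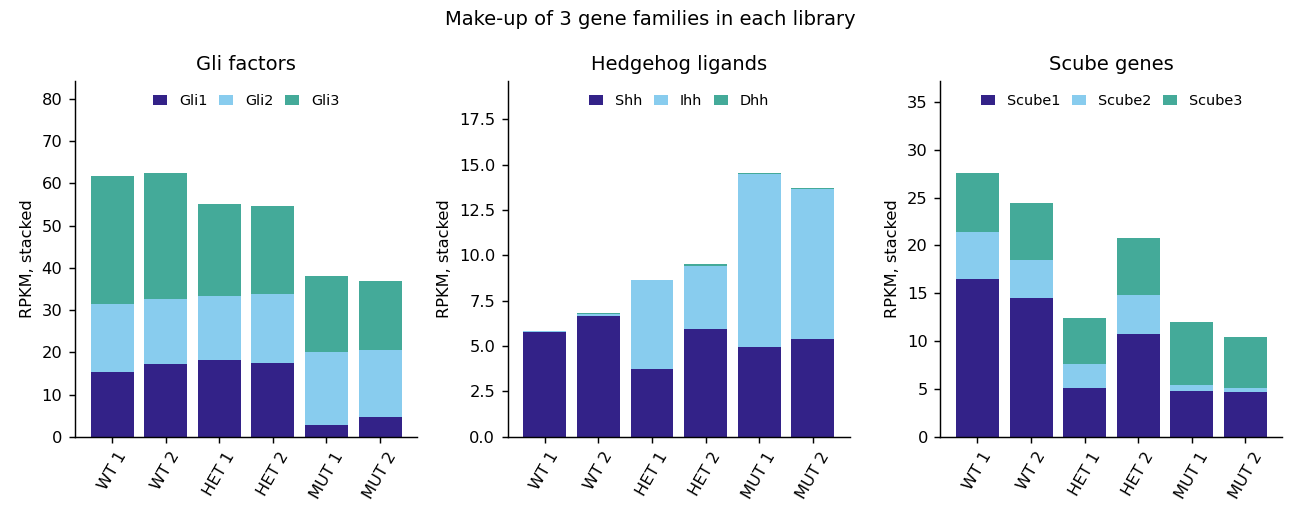
RPKM of the members of 3 gene families stacked for each library (WT wild type, HET heterozygous, MUT mutant): Gli factors, Hedgehog ligands and Scube genes. Gli1, Gli3, Scube1 and Scube2 shrink in the mutant bars, and Ihh takes up most of the mutant ligand bars. The Gli sum drops from 61.8 and 62.4 RPKM in wild-type to 38.1 and 36.9 in mutant libraries.

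Ptch1 encodes the main receptor, which restrains Smoothened, and is itself a target of the pathway (chromosome 13, 63508328 to 63573598, minus strand). It was at 37.2 and 50.9 RPKM in wild-type, 52.0 and 46.8 in heterozygous and 48.7 and 60.5 in mutant libraries. Wild-type replicate 1 was the lowest library, and wild-type replicate 2 lay within the ranges of both other groups. The log2 fold change in mutant heads was 0.32 (SE 0.17, 95% interval -0.10 to 0.74, adjusted p = 0.208). Scaled to neural progenitor genes it passed as higher (1.03, adjusted p = 0.000723), under a shift of 0.72 in the median of all genes. Without both libraries whose files disagree with their samples Ptch1 was at 0.71. That alternative sets only wild-type replicate 1, the lowest library, against mutant replicate 2, the highest.

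Hhip encodes a membrane protein that binds and sequesters ligand, and Gli factors induce it (chromosome 8, 79965851 to 80058006, minus strand). It had the lowest level of the 9 genes in wild-type heads, at 0.658 and 0.878 RPKM on 246 and 280 reads. Heterozygous libraries had 1.29 and 0.966 RPKM and mutant libraries 0.970 and 1.39, all above the wild-type values. Set against wild type, mutant heads were at 0.62 on the log2 scale (SE 0.25, 95% interval -0.00 to 1.25, adjusted p = 0.115) and heterozygous heads at 0.56 (SE 0.25, adjusted p = 0.253), and neither passed. Scaled to neural progenitor genes both passed, at 1.33 in mutant (adjusted p = 0.00113) and 0.87 in heterozygous heads (adjusted p = 0.0434), where the median of all genes shifted by 0.72 and 0.29.

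The coreceptors Boc, Cdon and Gas1 bind ligand at the surface and help present it to Patched. Boc lies on chromosome 16 (44485049 to 44558897, minus strand), which carries Prdm15 at 97791467 to 97851850. The Boc level was 13.1 and 11.3 RPKM in wild-type, 10.997 and 12.6 in heterozygous and 9.24 and 7.77 in mutant libraries. Both mutant libraries were below the other 4. Boc fell by 0.51 on the log2 scale in mutant against wild-type heads (SE 0.13, adjusted p = 0.0329), while heterozygous against wild type gave -0.05 (SE 0.13, adjusted p = 0.866) and mutant against heterozygous -0.46 (SE 0.13, adjusted p = 0.137). The call for Boc was lost without wild-type replicate 1 (-0.38, adjusted p = 0.14), without mutant replicate 1 (-0.64, adjusted p = 0.0582), without mutant replicate 2 (-0.40, adjusted p = 0.126) and with a term for Xist (-0.40, adjusted p = 0.131). Scaled to neural progenitor genes its sign turned, to 0.22 (adjusted p = 0.295), under a shift of 0.72 in the median of all genes.

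Cdon, the paralog of Boc, was at 17.3 and 15.5 RPKM in wild-type, 12.4 and 15.5 in heterozygous and 12.1 and 9.55 in mutant libraries. Its log2 fold change in mutant heads was -0.59 (SE 0.15, adjusted p = 0.0347), and 0.14 (adjusted p = 0.498) scaled to neural progenitor genes. Gas1 was at 26.7 and 25.1 RPKM in wild-type and 23.5 and 21.8 in mutant libraries, with a log2 fold change of -0.18 (SE 0.09, adjusted p = 0.156). Smo encodes Smoothened, the signal transducer (chromosome 6, 29735503 to 29761365, plus strand). It was the most abundant of the 9 genes per length in every library, at 81.2 and 82.3 RPKM in wild-type, 75.9 and 71.7 in heterozygous and 73.7 and 73.7 in mutant libraries. All heterozygous and mutant libraries lay below the wild-type ones by a small step, with log2 fold changes from wild type of -0.14 in mutant (SE 0.05, adjusted p = 0.0705) and -0.14 in heterozygous heads (SE 0.05, adjusted p = 0.142). Under neural progenitor scaling the mutant value was 0.58 (adjusted p = 0.00549), below the 0.72 shift of all genes. As lower, Smo passed with DESeq2 (-0.13, adjusted p = 0.0458) and with only the 2 groups compared in the fit (-0.14, adjusted p = 0.0498).

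Among the transcription factors Gli1 fell most. Gli1 acts only as an activator and its transcription depends on the pathway (chromosome 10, 127329882 to 127341974, minus strand). It was at 15.4 and 17.3 RPKM in wild-type, 18.1 and 17.4 in heterozygous and 2.74 and 4.76 in mutant libraries. The wild-type and heterozygous libraries lay close together and both mutant libraries far below them, on 380 and 512 reads against 1901 to 2320 in the other 4. In mutant against wild-type heads Gli1 fell by 2.12 on the log2 scale (SE 0.25, 95% interval -2.73 to -1.52), a 4.36-fold lower level, adjusted p = 0.00346. Mutant against heterozygous gave -2.24 (SE 0.25, adjusted p = 0.0385), and heterozygous against wild type 0.12 (SE 0.23, adjusted p = 0.794). Taking files by sample instead of title turned its sign, to 0.29 (adjusted p = 1). By title Gli1 passed as lower in mutant against wild type in 17 of 17 alternatives, with values from -2.57 to -1.42. Arhgap9, which overlaps Gli1 exons on the opposite strand, held 19 to 38 reads per library.

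The heterozygous level of Gli1 was compared with the midpoint of wild type and mutant on the log2 scale, and the difference did not pass. It was 1.18 higher (SE 0.20, 95% interval 0.70 to 1.67), with adjusted p = 0.102, and Scube2 was 1.06 higher (SE 0.22, adjusted p = 0.19). In that comparison none of the 9 genes passed edgeR's quasi-likelihood test, which 0.632% of all genes tested passed. Of the 9, 2 had an unadjusted p under 0.05 in that test. DESeq2 and the likelihood ratio test each passed 2, Gli1 and Scube2. By title the Gli1 value ranged from 1.01 to 1.41 over 16 alternatives. Gli3, by contrast, lay close to the midpoint in heterozygous libraries, at -0.09 (SE 0.05, adjusted p = 0.653).

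Gli2, the main activator early in signalling, did not pass in any of the 3 comparisons. It was at 16.1 and 15.3 RPKM in wild-type, 15.1 and 16.5 in heterozygous and 17.4 and 15.8 in mutant libraries, and all 3 groups overlapped. Mutant heads differed from wild type by a log2 fold change of 0.09 (SE 0.07, 95% interval -0.09 to 0.27, adjusted p = 0.384), and heterozygous heads by 0.02 (SE 0.07, adjusted p = 0.922). Scaled to neural progenitor genes Gli2 passed as higher in mutant heads, at 0.81 against wild type (adjusted p = 0.000878) and 0.51 against heterozygous (adjusted p = 0.0301), where the median of all genes shifted by 0.72 and 0.43. Gli3 (chromosome 13, 15463235 to 15730026, plus strand), which is processed to the main repressor when the pathway is off, fell in heterozygous and in mutant heads against wild type, while the difference between those 2 groups did not pass. Its level was 30.3 and 29.8 RPKM in wild-type, 21.9 and 20.9 in heterozygous and 18.0 and 16.3 in mutant libraries, and no group overlapped another. Against wild type it fell by 0.80 in mutant (SE 0.06, adjusted p = 0.00104) and by 0.49 in heterozygous heads (SE 0.06, adjusted p = 0.0115) on the log2 scale. Mutant against heterozygous gave -0.31 (SE 0.06, adjusted p = 0.0899), and 0.12 under neural progenitor scaling. The heterozygous call was lost without wild-type replicate 1 (-0.47, adjusted p = 0.0501) and without heterozygous replicate 1 (-0.52, adjusted p = 0.0553), and under neural progenitor scaling the value shrank to -0.19 (adjusted p = 0.356). Scaled to neural progenitor genes the mutant value was -0.08 (adjusted p = 0.659) under the 0.72 shift of all genes. Neural progenitor markers themselves had a median log2 fold change of -0.73 in mutant heads, close to the -0.80 of Gli3, and their part in the Gli3 value was not tested.

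The make-up of the Gli family differed between mutant and wild-type libraries in its Gli1 and Gli2 shares. Gli1 made up 24.9% and 27.8% of the summed Gli RPKM in wild-type, 32.9% and 31.8% in heterozygous and 7.20% and 12.9% in mutant libraries. Gli2 made up 26.0% and 24.5% of the sum in wild-type and 45.6% and 42.9% in mutant libraries at a level RPKM. Gli3 held 49.1% and 47.7% in wild-type, 39.7% and 38.1% in heterozygous and 47.2% and 44.2% in mutant libraries.

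Of the 3 genes among the 9 that Gli factors are known to induce, Gli1 fell in mutant heads, and Ptch1 and Hhip, with positive values, did not pass. The RPKM ratio of Gli1 to Ptch1 was 0.414 and 0.341 in wild-type, 0.349 and 0.372 in heterozygous and 0.0564 and 0.0787 in mutant libraries, without overlap between mutant and the other groups. These ratios are within a library and do not depend on its scaling; with 2 libraries a group no exact test of them can reach 0.05, and none was made. The heterozygous libraries had Gli1 at 18.1 and 17.4 RPKM. Their visceral endoderm sums were 3336 and 2467 CPM and heart sums 2062 and 3215 CPM. Their neural progenitor sums were 1471 and 1708 CPM and forebrain sums 346 and 429 CPM. Mutant libraries had 5916 and 5002, 2489 and 1425, 1259 and 1343, and 192 and 152 CPM in the same order. The part of these tissues in the Gli1 levels was not tested.

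**Figure D4:**
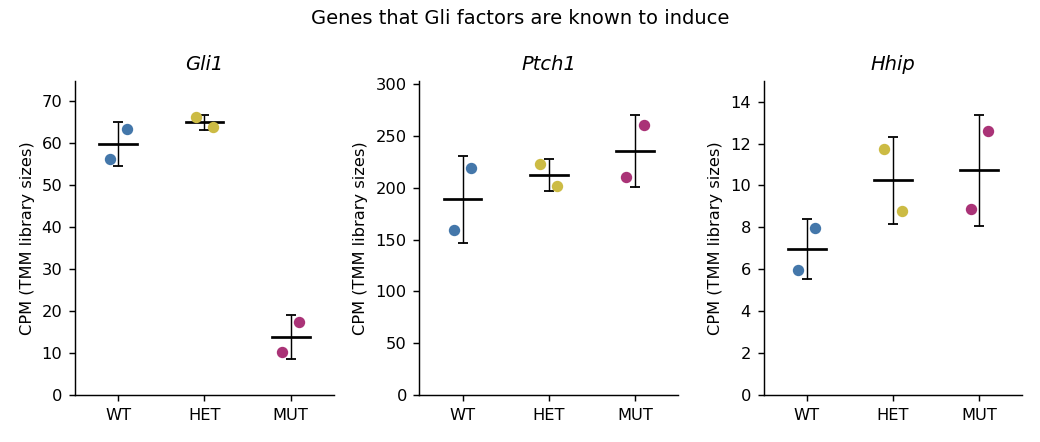
CPM on TMM library sizes of Gli1, Ptch1 and Hhip, genes that Gli factors are known to induce, in each library (points), with mean (line) and SD (bar) of the 2 libraries of each genotype (WT wild type, HET heterozygous, MUT mutant). Gli1 is low in both mutant libraries, while the mutant means of Ptch1 and Hhip lie above the wild-type means, with overlapping libraries for Ptch1.

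The promoters of 6 of the 9 genes were in the RefSeq table for GRCm38.p6; Shh, Gli1 and Boc had no entry. The 250 bases before the transcription start were searched on both strands for the Gli site GACCACCCA, for GACCNCCCA and, chosen after seeing that result, for its core CCACCC. Of 32851 promoters 0.225%, 0.868% and 28.1% held these, and the first 2 were in none of the 6. The core was in the promoters of Smo, Gli2 (at 2 places), Gli3 and Hhip and not in those of Ptch1 and Scube2. The sequences are shown for the 2 genes with an entry that fell most in mutant heads, Scube2 (chr7:109865680-109865929, minus strand) and Gli3 (chr13:15463473-15463722, plus strand), and for the 2 target genes that did not fall, Ptch1 (chr13:63565736-63565985, minus strand) and Hhip (chr8:80058009-80058258, minus strand), 5′ to 3′ on the gene's strand, with the core in capitals on either strand.
Scube2: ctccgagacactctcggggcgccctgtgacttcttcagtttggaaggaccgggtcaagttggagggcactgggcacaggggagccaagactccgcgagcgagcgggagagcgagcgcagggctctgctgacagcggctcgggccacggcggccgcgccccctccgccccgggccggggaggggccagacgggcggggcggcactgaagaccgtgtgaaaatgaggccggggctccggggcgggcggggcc
Gli3: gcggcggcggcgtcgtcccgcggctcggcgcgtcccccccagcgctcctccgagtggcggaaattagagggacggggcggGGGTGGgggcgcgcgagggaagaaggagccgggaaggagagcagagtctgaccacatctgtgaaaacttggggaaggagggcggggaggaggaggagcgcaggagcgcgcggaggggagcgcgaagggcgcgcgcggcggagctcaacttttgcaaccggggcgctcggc
Ptch1: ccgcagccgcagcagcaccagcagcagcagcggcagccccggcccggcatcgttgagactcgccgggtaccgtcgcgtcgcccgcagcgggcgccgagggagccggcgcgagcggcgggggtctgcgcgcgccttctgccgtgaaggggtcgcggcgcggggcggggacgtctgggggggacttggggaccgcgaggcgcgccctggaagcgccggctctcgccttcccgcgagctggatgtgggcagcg
Hhip: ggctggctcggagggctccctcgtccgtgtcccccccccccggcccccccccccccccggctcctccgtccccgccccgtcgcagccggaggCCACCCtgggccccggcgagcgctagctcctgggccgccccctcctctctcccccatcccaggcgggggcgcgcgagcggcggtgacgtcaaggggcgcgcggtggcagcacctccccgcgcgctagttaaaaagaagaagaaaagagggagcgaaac
The core lies 170 bases before the start of Gli3, on the opposite strand, and 158 bases before that of Hhip. The Ptch1 and Gli3 starts in the table lie inside longer transcripts of these genes in GENCODE M21, so other starts exist. All 4 windows were rich in G and C, at 73.6% for Scube2, 72.8% for Gli3, 78.4% for Ptch1 and 76.0% for Hhip, against a median of 52.4% over all promoters. The Gli3 window also overlaps an exon of the gene model Gm6556. A match to these letters is a description and not a site.

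Other genes of the pathway were taken from lists drawn up by role, with earlier results of these data known. Against wild type 17.1% of all genes tested rose in mutant heads and 13.6% fell. Of 18 further ligands, release and surface proteins 16 were tested, and in mutant against wild-type heads 5 rose and 4 fell (median log2 fold change -0.04). Scaled to neural progenitor genes 10 rose and 2 fell, where 10689 of all 15187 genes tested rose and 411 fell. Besides Ihh, Lrp2, an endocytic receptor that binds Shh and is also abundant in visceral endoderm, rose by 1.06 (SE 0.22, adjusted p = 0.0172). Besides Scube1 and Cdon, Gpc6, a glypican, changed by -1.33 (SE 0.08, adjusted p = 0.000646). Disp1, which exports ligand, did not pass, at -0.05 (SE 0.10, adjusted p = 0.739). Between Smo and the Gli factors 29 regulators were tested, of which 4 rose and 9 fell (median -0.11), and 22 rose and none fell under neural progenitor scaling. Those that fell included Gpr161, a ciliary receptor that raises cAMP and restrains the pathway (-0.53, SE 0.12, adjusted p = 0.0226), Stk36 (-0.52, SE 0.11, adjusted p = 0.0201) and Evc2, a partner of Smoothened in the cilium (-0.41, SE 0.09, adjusted p = 0.023). Kif7, a ciliary kinesin that regulates Gli factors, was at -0.35 (SE 0.08, adjusted p = 0.0269). Those that rose included Mgrn1, a ubiquitin ligase (0.56, SE 0.12, adjusted p = 0.0192), the adenylyl cyclase gene Adcy6 (0.52, SE 0.08, adjusted p = 0.00671) and Prkaca, the catalytic subunit of protein kinase A, which marks Gli proteins for processing (0.41, SE 0.07, adjusted p = 0.00897). Sufu, which holds Gli factors in the cytoplasm, did not pass, at 0.17 (SE 0.09, adjusted p = 0.21). Under neural progenitor scaling Gpr161, Stk36, Evc2 and Kif7 turned positive without passing (0.20, 0.19, 0.31 and 0.37). Scube3, Gas1, Disp1 and Sufu then passed as higher (0.73, 0.54, 0.68 and 0.89), under a shift of 0.72 in the median of all genes.

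Cilium genes moved by small steps. Of 37 genes for cilium assembly and the transition zone 20 fell in mutant heads, where 13.6% of all genes tested fell. Of the 37, 2 had a positive value (median log2 fold change -0.40). Scaled to neural progenitor genes 16 rose (median 0.31, below the 0.72 shift of all genes), where 10689 of all 15187 genes tested rose. Among genes averaging at least 1 CPM the largest falls were those of Rfx3, a transcription factor of ciliary genes (-0.68, SE 0.08, adjusted p = 0.00424), Dync2li1, of the retrograde motor (-0.67, SE 0.13, adjusted p = 0.0166), and Ift74, of the anterograde train (-0.66, SE 0.08, adjusted p = 0.00337). Under that scaling these 3 were at 0.04, 0.06 and 0.05 and did not pass. The list's median in heterozygous against wild-type heads was -0.10.

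Genes placed along the dorsoventral axis of the neural tube fell on both sides. Among all genes tested 13.6% fell and 17.1% rose in mutant heads. Of 18 tested genes of the ventral neural tube and ventral forebrain 12 fell and 2 rose in mutant heads (median log2 fold change -1.68). Under neural progenitor scaling 9 fell and 4 rose, where 411 of all 15187 genes tested fell and 10689 rose. Nkx2-1, of the ventral forebrain, had 3.61 and 3.56 CPM in the wild-type, 0.322 and 1.61 in heterozygous and 0.186 and 0.204 in mutant libraries (-4.17, SE 0.77, adjusted p = 0.0129). Six3, a forebrain factor that acts on the Shh gene, fell too (-2.33, SE 0.56, adjusted p = 0.0275). Foxa2, a factor of the floor plate, notochord and endoderm, rose by 0.53 (SE 0.13, adjusted p = 0.0298), as did Sim1 by 1.73 (SE 0.50, adjusted p = 0.0469). Of 18 dorsal and intermediate neural genes 10 fell and 5 rose (median -1.07), and 6 fell and 6 rose under neural progenitor scaling. Among genes averaging at least 1 CPM the largest falls were those of Zic1 (-3.96, SE 0.94, adjusted p = 0.0271), Msx3 (-3.31, SE 0.78, adjusted p = 0.0259) and Dbx1 (-2.43, SE 0.61, adjusted p = 0.0317), and Bmp7, a ligand also made outside the neural tube, rose by 0.94 (SE 0.11, adjusted p = 0.00369). The summed neural progenitor markers were lower in the same mutant libraries, and their part in these counts was not tested.

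Mesodermal and general targets moved apart. Of 18 tested 4 rose and 6 fell in mutant heads (median log2 fold change -0.31), where 17.1% of all genes tested rose and 13.6% fell. Under neural progenitor scaling 10 rose and 1 fell, where 10689 of all 15187 genes tested rose and 411 fell. Foxf1, a Hedgehog target of mesoderm, had 3.61 and 1.48 CPM in the wild-type, 28.3 and 25.6 in heterozygous and 68.4 and 65.8 in mutant libraries (4.70, SE 0.36, adjusted p = 0.00105), and Bmp4 rose by 2.07 (SE 0.22, adjusted p = 0.00254). Pax1, a target in sclerotome and pharyngeal pouches, had 3.82 and 2.82 CPM in the wild-type and 0.319 and 0.341 in mutant libraries (-3.32, SE 0.84, adjusted p = 0.0323). The order of the Foxf1 groups was that of the visceral endoderm sums, and the part of that tissue in Foxf1 was not tested. Among 16 genes of the axial midline, where Shh is made, 3 rose and 2 fell (median 0.56), and 10 rose and 2 fell under neural progenitor scaling (median 1.27); the sums were 172 and 156, 182 and 163, and 145 and 189 CPM in wild-type, heterozygous and mutant libraries, and overlapped.

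**Figure D5:**
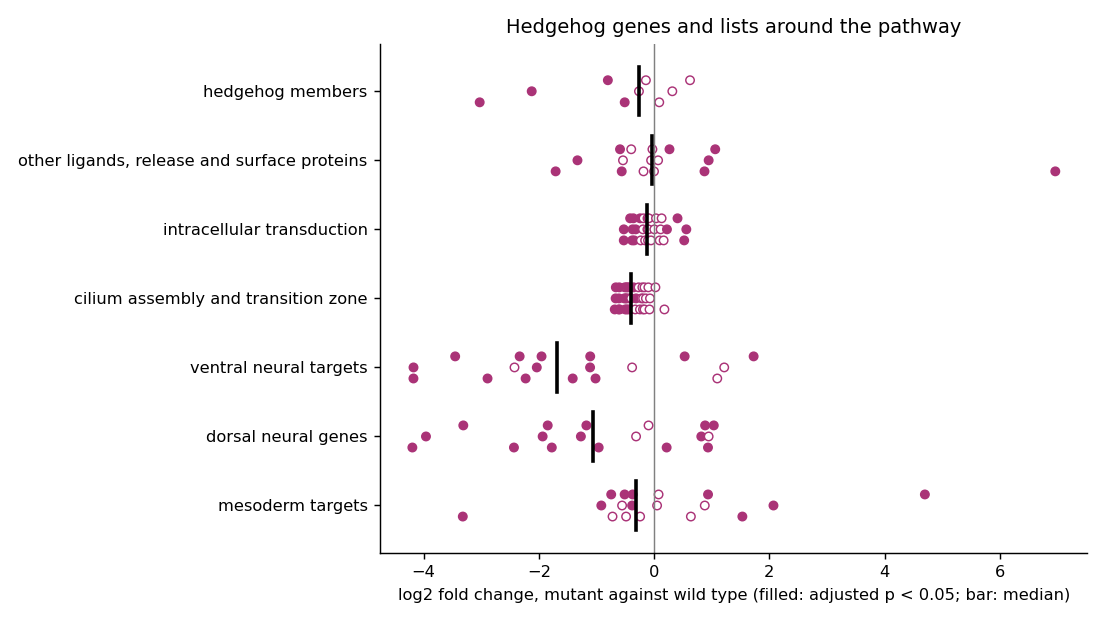
Log2 fold change in mutant against wild-type heads of each tested gene (points, filled where the adjusted p is under 0.05) among the 9 Hedgehog pathway genes (top row) and in 6 lists around them, with the list's median (bar). The point far to the right among ligands and surface proteins is Ihh at 6.96, and the ventral neural list has the lowest median at -1.68.

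For each of the 4 genes that fell, the genes with the closest profile of log2 CPM over the 6 libraries were found by Euclidean distance after centring. Those closest to Gli1 were Cux2 (distance 0.736), Eps15 (0.775) and Nkx2-9 (0.815), the last a factor of the ventral neural tube that is on the ventral list, at 13.4 and 17.5 CPM in wild-type, 10.02 and 11.96 in heterozygous and 2.79 and 4.77 in mutant libraries. Those closest to Scube2 were Egr2 (0.514), a hindbrain segment factor, Kcna1 (0.677) and Efnb3 (0.768). Those closest to Gli3 were Aacs (0.0848), Chst3 (0.155) and Gpr63 (0.162), and to Boc Dnal1 (0.104), Rab11fip2 (0.106) and Ppp1r13l (0.131). With 6 libraries and many changed genes such likeness is a description.

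In the authors' deposited table, 4 of the 9 genes have a false discovery rate under 0.05 for mutant against wild type, where 14.3% of its 24062 genes do. Those 24062 include genes without reads, 6346 to 6741 being at 0 in each library. By edgeR's quasi-likelihood test 30.6% of the 15187 genes tested here passed. The authors' log2 fold changes are -2.13 for Gli1 (rate 6.67e-19), -3.04 for Scube2 (4.36e-16), -0.81 for Gli3 (7.39e-15) and -0.52 for Boc (0.0194). In the authors' deposited table the rate of Ptch1 is 0.175 and that of Hhip 0.242.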

How the data were processed

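Counts per gene were deposited by the authors for each library, and a series table holds RPKM values per library and, for mutant against wild type, the authors' log2 fold changes and log2 average CPM, p-values and false discovery rates. Per the submitters' processing notes, TopHat2 2.0.11, HTSeq 0.6.1p2, cutadapt 1.8 and edgeR 3.8.6 were used with mm10; libraries were stranded, per the labels' protocol, but for the annotation and the counter's strand setting no source used here has an entry, which makes overlapping genes on either strand uncertain. The summary lines (8.93% to 10.5% of read pairs in no feature, 12.7% to 14.5% not unique) were left out.

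Counts were assigned by the title in the file name. The ratio of count to RPKM, relative to wild-type replicate 1, lay within 0.1% of 1 constant for 100% of genes with over 50 counts in each of the other 5 files. The test was edgeR's quasi-likelihood F-test (edgeR 4.0.16, R 4.3.3) after TMM scaling and filterByExpr, on a single model of the 6 libraries that leaves 3 residual degrees of freedom. P-values of the 15187 genes were adjusted by Benjamini-Hochberg (threshold 0.05), and an SE is the size of a log2 fold change divided by the root of its F. List sums use library totals; 3 reads equal 0.0742 to 0.102 CPM. Alternatives used DESeq2 1.42.0, limma 3.58.1 (voom, and log2(RPKM + 0.1) or log2(RPKM + 1)), other scaling and single libraries left out. Named genes of other lists are up to 3 per direction with the largest change among called genes averaging 1 CPM or more, and Ihh, Dhh, Cdon, Gas1, Disp1, Sufu and Kif7 whatever their result; Scube3 completes its family, and the 3 genes nearest to each member that passed are named. Some genes the rule names are not reported here. The CCACCC search was added after seeing the data, and a planned comparison of Gli protein sequences was not made. Members and lists were chosen with earlier results of these data known. Gene positions follow GENCODE M21 (GRCm38, which mm10 is built on).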

Additional observations from a re-analysis of the deposited data

How the results depend on the processing

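By title, the falls of Gli1 and Scube2 in mutant against wild-type heads passed under 17 of 17 alternatives, that of Gli3 under 16 and that of Boc under 12. The cause of the changes below was not tested. No paired analysis was possible because the labels give no replicate number, litter or batch shared between genotypes. Depth limited Scube2 and Hhip most, at 50 to 724 and 246 to 370 reads.

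With files taken by their samples instead of their titles, 0 of the 9 genes and 0 of all genes passed in any comparison. In mutant against wild type the log2 fold changes were then 0.16 for Shh, 0.0084 for Smo, 0.29 for Gli1 and -0.11 for Gli2. Heterozygous against wild type gave -0.084 for Gli2, 0.24 for Scube2 and 0.075 for Boc, and mutant against heterozygous gave -0.025 for Gli2 and 0.11 for Gli3. Without both libraries whose files disagree with their samples, chosen after seeing the data, 2046 genes passed in mutant against wild type, 180 in mutant against heterozygous and 293 in heterozygous against midpoint, with 1 of the 9 in the last; Gli2 was at -0.022 in mutant and -0.024 in heterozygous against wild type (1 residual degree of freedom).

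Size factors from neural progenitor genes gave 11100 genes for mutant and 2029 for heterozygous against wild type, 5607 in mutant against heterozygous (5 of the 9) and 174 against the midpoint (1 of the 9). Under them the log2 fold changes in mutant against wild type were 0.46 for Shh, 0.58 for Smo and 0.22 for Boc, for heterozygous against wild type 0.15 for Smo and 0.24 for Boc, in mutant against heterozygous 0.12 for Gli3, and against the midpoint -0.046 for Ptch1. A term for Xist gave 2500, 516, 4 and 0 genes in the same order of comparisons, against 4654, 997, 66 and 96 without it, and 0 of the 9 in mutant against heterozygous. With that term Gli2 was at -0.019 in heterozygous against wild type. Mutant against heterozygous, Shh was at -0.10, Ptch1 at -0.31, Smo at -0.020 and Hhip at -0.36.

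DESeq2 called 1897 genes in heterozygous against wild type, 1321 in mutant against heterozygous (4 of the 9) and 367 against the midpoint (2 of the 9). The likelihood ratio test called 1579, 801 and 396 there (2 of the 9 in the last). With limma-voom 1 of the 9 passed in mutant against heterozygous, and 8 genes against the midpoint. Without a filter on low counts 182 genes passed in mutant against heterozygous and 147 against the midpoint (1 of the 9), and Smo was at -0.0022 in the former. With only the 2 groups compared 106 genes passed in mutant against heterozygous. On log2(RPKM + 0.1) 63 genes passed against the midpoint, and on log2(RPKM + 1) 29, with 1 of the 9 in mutant against heterozygous; Smo was at -0.0016 in mutant against heterozygous on both.

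Leaving out 1 library at a time gave 1997 to 4265 genes for mutant and 313 to 748 for heterozygous against wild type, 11 to 81 in mutant against heterozygous and 27 to 128 against the midpoint, with 0 to 1, 0 to 2 and 0 to 1 of the 9 in the last 3. In heterozygous against wild type Ptch1 then ranged from -0.040 to 0.41, Boc from -0.16 to 0.072 and Gli2 from -0.048 to 0.082. In mutant against heterozygous Smo ranged from -0.042 to 0.035, Shh from -0.20 to 0.47, Hhip from -0.22 to 0.30 and Ptch1 from -0.021 to 0.30. Against the midpoint Ptch1 ranged from -0.10 to 0.13, Shh from -0.60 to 0.072 and Gli2 from -0.090 to 0.039. A group left with 1 library is assumed to vary like the others.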
